A study of Mus musculus with 43 samples.

Results

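Plvap, a gene of the pores called fenestrae in leaky capillaries, was described together with Esm1, Btnl9, Plpp1, Plpp3, Igfbp3 and Rgcc in RNA-seq libraries of brain endothelial cells (EC) of 7 inbred mouse strains. The 7 genes were found by symbol among the 54532 genes of the count table, and each matched 1 entry. They had been selected on their measured levels by strain and by brain region, so those levels are described here without a test. Differences between the sexes, and between the libraries whose titles carry the word high or low, were not a criterion of that choice and were tested. These tests use the same libraries, so they are not fully independent of the choice.

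EC had been sorted by flow cytometry as CD45-, CD11b- and CD31+ cells from the hippocampus (HC) or the cortex of mice aged 2 months. The table held 43 libraries, 22 from HC and 21 from cortex, with 16 from females and 27 from males. The long-inbred strains were 129S1/SvImJ with 9 libraries (4 HC and 5 cortex), A/J with 5 (3 HC and 2 cortex), C57BL/6J with 6, DBA/2J with 5 (3 HC and 2 cortex) and NOD/ShiLtJ with 6. The recently wild-derived strains CAST/EiJ and WSB/EiJ had 6 each, and a strain with 6 libraries had 3 from each region. Each title ended in high or low, which the labels do not explain. There were 15 female high, 1 female low, 14 male high and 13 male low libraries, and outside 129S1/SvImJ no combination of strain, region, sex and title word held more than 1 library. No transgene, drug or deletion was used, and nothing in the labels ties a library to a mouse, so each p-value measures the spread between these libraries.

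In most brain capillaries EC form a sealed wall: tight junctions close the gaps between cells and few vesicles cross them, which together make the blood-brain barrier. In a few places, among them the choroid plexus and the circumventricular organs, capillaries instead carry fenestrae, small round pores spanned by a diaphragm. Plvap encodes the protein of which these diaphragms, and those of caveolae, are built, and healthy barrier endothelium silences it. Esm1 (endocan) is a secreted proteoglycan made by endothelial tip cells under VEGF. Btnl9 is a butyrophilin-like membrane protein of the immunoglobulin superfamily, found on capillary EC of several organs. Plpp1 and Plpp3 are membrane lipid phosphatases that dephosphorylate lysophosphatidic acid and related lipids outside the cell. Igfbp3 binds insulin-like growth factors in the extracellular space, and Rgcc is a regulator of the cell cycle that EC express. Only Plvap is a structural part of fenestrae, and the other 6 stand beside it as genes of permeable or angiogenic endothelium or through their levels here.

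The genes lie at separate places of the mm10 genome (GENCODE M21 annotation). Plvap (ENSMUSG00000034845) spans chr8:71497765-71511752 on the minus strand, and its end overlaps Gtpbp3 on the other strand. Esm1 (ENSMUSG00000042379) spans chr13:113209659-113218098 on the plus strand inside the span of Gzmk, which lies on the minus strand. Btnl9 (ENSMUSG00000040283) spans chr11:49165585-49187159 and Igfbp3 (ENSMUSG00000020427) chr11:7206086-7213923, both on the minus strand. Plpp1 (ENSMUSG00000021759) spans chr13:112800792-112867894 on the plus strand and overlaps Mtrex on the minus strand. Plpp3 (ENSMUSG00000028517) spans chr4:105157347-105232764 on the plus strand, and Rgcc (ENSMUSG00000022018) chr14:79288756-79301645 on the minus strand. The kit marks strand, but whether the authors counted by strand is not given in the sources used here, so reads of an overlapping partner could be included for Plvap, Esm1 and Plpp1.

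RefSeq promoter windows of build GRCm38.p6 (250 bases before the start and 50 after it) were at hand for 5 of the 7 genes, all but Plvap and Plpp1. The bases before the start are shown for the 3 genes that were high in the same hippocampal libraries as Plvap, so that their promoters can be set beside each other. They are written 5′ to 3′ along the gene's strand, at chr13:113209409-113209658 (plus) for Esm1, chr11:49187090-49187339 (minus) for Btnl9 and chr11:7213924-7214173 (minus) for Igfbp3, and capitals mark a match to one of the motifs searched.
Esm1: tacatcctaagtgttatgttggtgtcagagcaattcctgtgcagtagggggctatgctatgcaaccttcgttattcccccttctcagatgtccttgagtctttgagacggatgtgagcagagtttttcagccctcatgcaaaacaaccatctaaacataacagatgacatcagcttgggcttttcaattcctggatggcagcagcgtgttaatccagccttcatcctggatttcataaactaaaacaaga
Btnl9: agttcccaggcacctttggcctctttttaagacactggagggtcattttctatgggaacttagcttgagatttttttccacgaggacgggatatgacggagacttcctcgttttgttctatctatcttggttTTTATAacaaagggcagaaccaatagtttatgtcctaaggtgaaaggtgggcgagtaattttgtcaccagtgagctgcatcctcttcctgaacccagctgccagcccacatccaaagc
Igfbp3: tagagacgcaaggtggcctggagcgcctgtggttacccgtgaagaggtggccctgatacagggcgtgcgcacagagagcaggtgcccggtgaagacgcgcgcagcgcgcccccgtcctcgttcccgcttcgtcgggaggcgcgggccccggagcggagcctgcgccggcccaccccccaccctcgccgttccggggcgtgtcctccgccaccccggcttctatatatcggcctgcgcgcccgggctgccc
Motifs of 6 to 8 letters were searched on both strands of the windows. For factors of the ETS family these were CCGGAAGT, which 3.89% of all 32851 promoter windows of the table contain, and ACAGGAAG, which 3.58% contain. The SOX letters ATTGTT occur in 10.7% of all windows. The TCF/LEF letters CTTTGAT, read by Wnt signalling, occur in 3.73% of them. The GATA letters AGATAAG occur in 3.04% of all windows. The Sp1/KLF letters GGGCGG occur in 35.7% of all windows and were found in those of Plpp3 and Rgcc. The TATA box letters TATAAA occur in 13.6% of all windows, and the Btnl9 window held them on its opposite strand. None of the 7 was found in the windows of Esm1 and Igfbp3. The printed bases differed in composition, with G and C making up 44.0% for Esm1 and 45.6% for Btnl9 against 73.2% for Igfbp3.

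The libraries summed to between 1626534 and 49372356 counts. At these depths 3 counts, the most that a count of 0 allows, were worth between 0.0537 and 1.84 CPM (counts scaled to the size of each library, after TMM), and such limits cover counting error only. The summed CPM of 12 general EC markers lay between 7961 and 14509 in every library, and between 10878 and 13982 in the 4 libraries on which most of what follows rests, which are the 3 DBA/2J HC libraries and the female NOD/ShiLtJ HC library. These 4 are named after their values were seen and are given one by one. The rRNA-like transcripts Gm23935, Gm42418 and Gm26917 together took 1.59 to 12.1% of the reads in female libraries and 13.0 to 29.3% in male libraries, without overlap, so sex and this share cannot be told apart. In bulk RNA of sorted cells, fewer cells of a type and less RNA per cell cannot be told apart either.

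Compared per kilobase of exon, the member genes differed widely in abundance. Rgcc stood highest, at 87.0 ± 94.2 CPM per kb in HC (SD, n = 22) and 55.1 ± 25.6 in cortex (n = 21), and Plpp3 reached 28.2 ± 24.4 and 29.3 ± 17.3. Plpp1 lay at 13.9 ± 16.9 in HC and 8.45 ± 7.18 in cortex. Igfbp3 averaged 16.2 ± 37.9 CPM per kb in HC against 2.02 ± 2.56 in cortex. The other three were near the floor in cortex: Plvap averaged 0.557 ± 1.71 CPM per kb, Esm1 0.107 ± 0.448 and Btnl9 0.0132 ± 0.0507. Their HC means of 32.9 ± 89.7, 7.53 ± 21.5 and 1.36 ± 3.16 CPM per kb each had an SD above the mean, because few libraries carried most of the reads.

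Plvap, the diaphragm gene, showed this most clearly. In DBA/2J HC it stood at 746.7 CPM in the female high library (41708 counts), 193.2 in the male high library (1120 counts) and 71.6 in the male low library (506 counts). In NOD/ShiLtJ HC it stood at 401.0 CPM in the female high library (8225 counts), but at 0.187 in the male high library (1 count) and 4.86 in the male low library (23 counts). These 4 libraries held 96.5% of the Plvap CPM summed over all 43, and each was above every other library.

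The 2 DBA/2J cortex libraries, both male, held almost no Plvap, with 0.255 CPM in the high (1 count) and 0.677 in the low library (4 counts). Between them and the DBA/2J HC libraries there was no overlap. Elsewhere in HC, the highest levels were 9.69 CPM in the male high library of 129S1/SvImJ (41 counts) and 8.27 in the male high library of C57BL/6J (46 counts). The 3 other 129S1/SvImJ HC libraries held 0.2, 0.174 and 0 CPM, and the 2 other C57BL/6J HC libraries none. A/J HC reached 0.961 CPM in its female library and 0 in both male ones, CAST/EiJ HC 1.47 in its female library and 1.01 and 0 in the male ones, and WSB/EiJ HC at most 0.524 (1 count). In cortex the highest level, 15.1 CPM, was in the female WSB/EiJ library (35 counts), followed by 5.07 in the male low NOD/ShiLtJ library (21 counts), and 12 of the 21 cortex libraries had no count.

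Ordered by their mean log2(CPM + 1) in HC, the strains ran from DBA/2J at 7.78 ± 1.69 (SD, n = 3) through NOD/ShiLtJ at 3.82 ± 4.34, C57BL/6J at 1.07 ± 1.85, 129S1/SvImJ at 0.98 ± 1.63 (n = 4), CAST/EiJ at 0.77 ± 0.68 and A/J at 0.32 ± 0.56 to WSB/EiJ at 0.20 ± 0.35. NOD/ShiLtJ owed its place to 1 library, and its range, from 0.187 to 401.0 CPM, overlapped those of all strains below it. From NOD/ShiLtJ downward, neighbours in this order overlapped and did not differ beyond their spread.

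**Figure D1:**
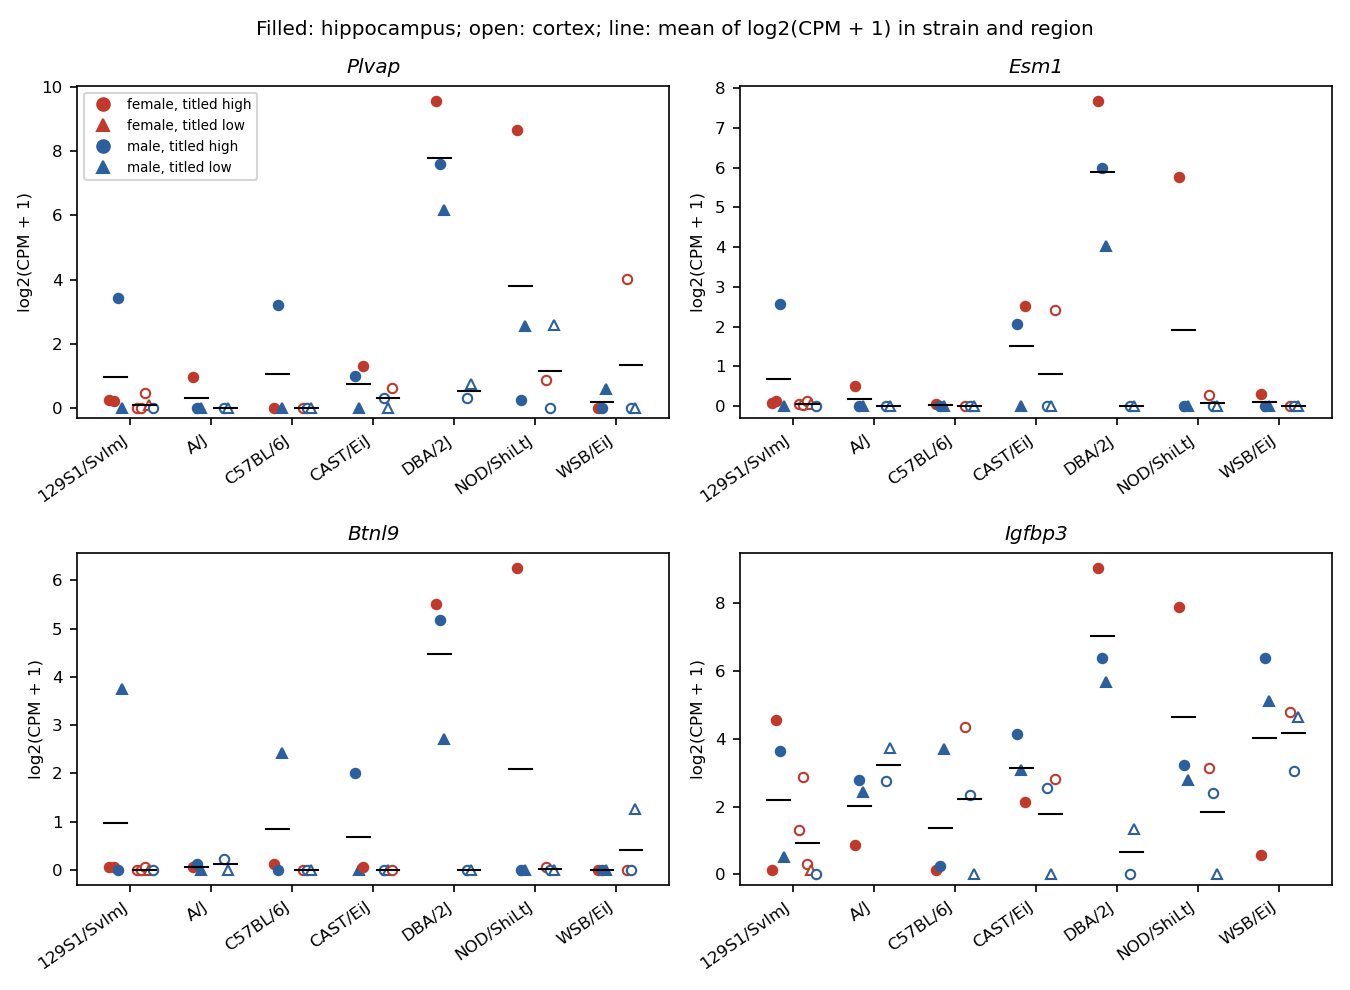
Plvap, Esm1, Btnl9 and Igfbp3 in each library, as log2(CPM + 1) on the vertical axis, by strain on the horizontal axis. Each point is 1 library, with region, sex and title word shown as in the legend. For Plvap and Esm1 the DBA/2J hippocampus libraries and the female NOD/ShiLtJ hippocampus library lie above all others, for Plvap from 71.6 to 746.7 CPM against at most 15.1 elsewhere, while for Btnl9 and Igfbp3 single libraries of other strains reach among them (12.4 and 82.8 CPM).

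Esm1, the tip cell proteoglycan, followed the same libraries. DBA/2J HC held 202.9 CPM in the female (11335 counts), 62.3 in the male high (361 counts) and 15.3 in the male low library (108 counts), and the female NOD/ShiLtJ HC library held 53.4 (1095 counts). Both male NOD/ShiLtJ HC libraries and both DBA/2J cortex libraries had no Esm1 count. The next levels were 4.96 CPM in the male high HC library of 129S1/SvImJ (21 counts), 4.71 in the female CAST/EiJ HC library (99 counts) and 4.32 in the female CAST/EiJ cortex library (109 counts). Of the 5 strains with female libraries of both regions, CAST/EiJ was the one with female levels above 4 CPM in both, far under that of DBA/2J HC, and DBA/2J and A/J had no female cortex library. All 13 male cortex libraries were at 0, and over the series 25 of 43 libraries were.

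Btnl9, the butyrophilin-like gene, was highest not in DBA/2J but in the female NOD/ShiLtJ HC library, at 75.7 CPM (1553 counts), with none in the 2 male NOD/ShiLtJ HC libraries. DBA/2J HC held 44.4 CPM in the female (2479 counts), 35.4 in the male high (205 counts) and 5.52 in the male low library (39 counts), and DBA/2J cortex none. Here the groups overlapped: the male low HC library of 129S1/SvImJ, at 12.4 CPM (30 counts), exceeded the lowest DBA/2J HC library.
Further levels above 1 CPM were 4.37 in the male low C57BL/6J HC library (17 counts), 3.03 in the male high CAST/EiJ HC library (21 counts) and 1.41 in the male low WSB/EiJ cortex library (7 counts). No other library passed 0.176 CPM, and 26 of 43 had no count. Of the 7 other butyrophilin genes examined, none was high with it. Their summed level was at most 0.283 CPM in the 4 libraries and at most 9.96 in any other.

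Igfbp3 shared the 4 libraries but was not limited to them. It reached 526.6 CPM in the female DBA/2J HC library (29412 counts), 82.6 in the male high and 50.2 in the male low one, and 237.3 in the female NOD/ShiLtJ HC library (4867 counts). In DBA/2J cortex it was at 0 and 1.52 CPM, without overlap with DBA/2J HC, and the male NOD/ShiLtJ HC libraries held 8.43 and 5.92. WSB/EiJ carried it as well. Its male HC libraries held 82.8 CPM (high, 135 counts) and 33.6 (low, 64 counts), its female HC library 0.487, and its 3 cortex libraries 26.8, 7.26 and 24.1. The male high WSB/EiJ library therefore stood level with the male high DBA/2J one, on few counts. Across all HC libraries the lowest, median and highest were 0.0911, 7.95 and 526.6 CPM, against 0, 4.32 and 26.8 in cortex.

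The lipid phosphatases were present in nearly every library, and the 4 libraries held a smaller part of their sum, 30.2% for Plpp1 and 23.7% for Plpp3. Plpp1 stood at 138.5 CPM in the female DBA/2J HC library and 64.1 in the female NOD/ShiLtJ one, the 2 HC libraries above every cortex library. The male DBA/2J HC libraries, at 32.3 (high) and 20.1 (low), lay inside the range of the other strains, where C57BL/6J HC held 34.7, 34.7 and 11.6. Both were above DBA/2J cortex, at 5.09 and 8.97. In cortex the highest level was 53.1 CPM in the male high NOD/ShiLtJ library, a strain whose male high HC library had no Plpp1 count.

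Plpp3 was high in all 3 DBA/2J HC libraries, at 243.7, 252.2 and 169.8 CPM for female, male high and male low, and at 261.6 in the female NOD/ShiLtJ HC library. DBA/2J cortex held 44.3 and 83.8, below each of them. The other 18 HC libraries ran from 10.6 to 129.0 CPM and did not overlap with the 4. Cortex did overlap, through the female WSB/EiJ library at 276.8 CPM, the highest of all. The same WSB/EiJ cortex library was also the highest cortex library for Plvap and for Igfbp3. The lowest Plpp3 levels were 10.6 CPM in a female 129S1/SvImJ HC library and 15.1 in the female C57BL/6J cortex library. The other female 129S1/SvImJ HC library held 17.5, and both of that strain lay below the 83.1, 73.1 and 51.1 of its 3 female high cortex libraries.

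**Figure D2:**
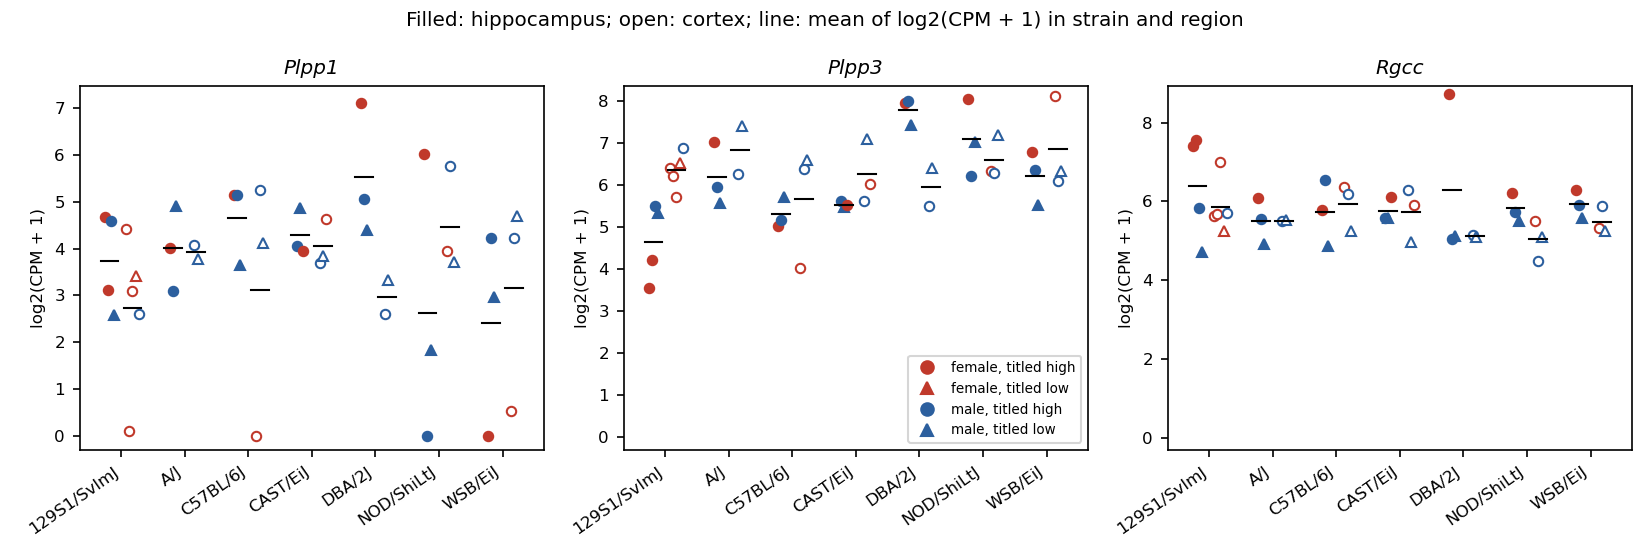
Plpp1, Plpp3 and Rgcc in each library, as log2(CPM + 1) on the vertical axis, by strain on the horizontal axis, with the same symbols for region, sex and title word. Plpp3 separates DBA/2J hippocampus (169.8 to 252.2 CPM) from DBA/2J cortex (44.3 and 83.8), whereas of the DBA/2J libraries only the female one is high for Rgcc (420.0 CPM).

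Rgcc did not follow the others. It reached 420.0 CPM in the female DBA/2J HC library, but the male DBA/2J HC libraries held 31.9 and 33.8, at the level of DBA/2J cortex (34.1 and 33.4) and toward the low end of all HC libraries. The female NOD/ShiLtJ HC library held 73.8 CPM, against 52.2 and 44.6 in the males. The next highest levels were 189.0 and 169.5 CPM in the female 129S1/SvImJ HC libraries, and 127.4 in a female cortex library of that strain. HC ran from 25.2 over a median of 53.2 to 420.0, and cortex from 21.6 over 44.5 to 127.4, so the regions overlapped almost wholly.

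Set against cortex over all libraries, the mean log2(CPM + 1) in HC was higher by 1.60 for Plvap, 1.30 for Esm1, 1.21 for Btnl9, 1.403 for Igfbp3, 0.47 for Plpp1 and 0.36 for Rgcc, and lower for Plpp3 (-0.31). These values describe how the genes were chosen. Without the 4 libraries, an alternative chosen after seeing the data, the differences were 0.29 for Plvap, 0.32 for Esm1, 0.41 for Btnl9, 0.55 for Igfbp3, 0.07 for Plpp1 and -0.71 for Plpp3. Leaving out all of DBA/2J gave 0.71 for Plvap, 0.58 for Esm1, 0.70 for Btnl9 and 0.69 for Igfbp3, and leaving out 129S1/SvImJ took Plpp3 to -0.00. In edgeR's quasi-likelihood test of HC against cortex 0.0755% of the 29120 genes tested were called at a Benjamini-Hochberg adjusted p of 0.05, which is 22 genes, 6 of them higher in HC. Plvap, Esm1, Btnl9 and Igfbp3 were 4 of those 6, but the contrast is the one used to choose them and nothing is read from it.

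HC and cortex were also set side by side within 18 pairs of the same strain, sex and title word, where several female 129S1/SvImJ libraries were averaged. Plvap was higher in HC in 10 and lower in 2, and Esm1 higher in 9 and lower in none, with no count in either library of the rest. Btnl9 was higher in 8 and lower in 2. Igfbp3 and Rgcc were each higher in 13 and lower in 5, Plpp1 higher in 10 and lower in 8, and Plpp3 higher in 5 and lower in 13. The median difference in log2(CPM + 1) was 0.17 for Plvap, 0.02 for Esm1 and 0 for Btnl9, so that their usual pair showed next to no difference and a few pairs showed up to 7.78, 5.98 and 6.19. Igfbp3 was the exception, with a median of 1.22 and a range from -4.24 to 6.39.

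**Figure D3:**
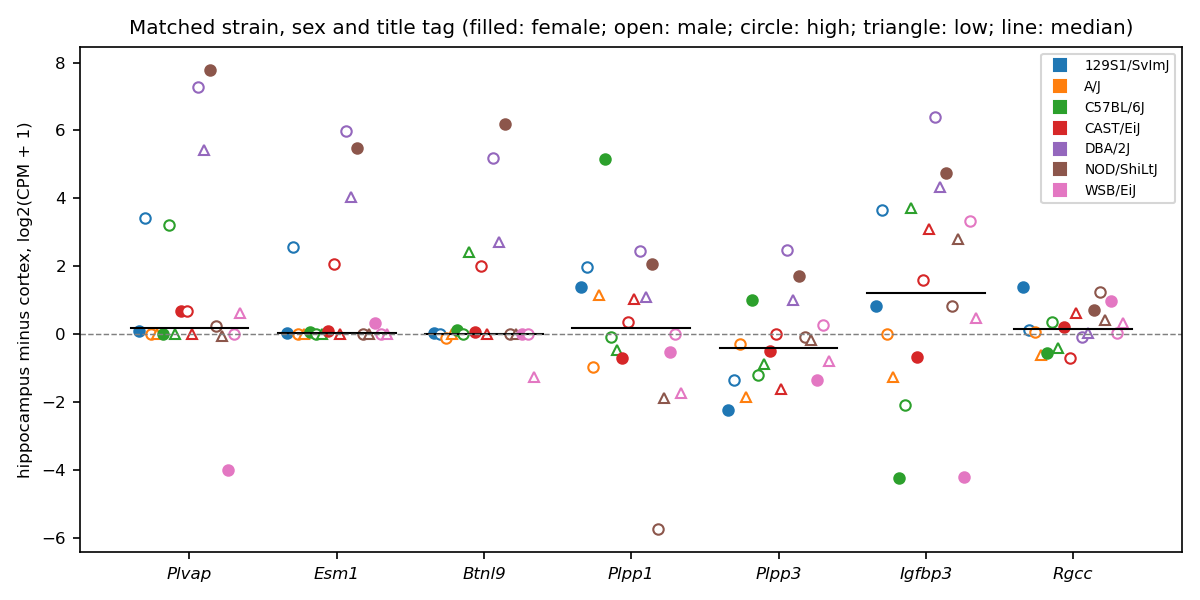
Hippocampus minus cortex of log2(CPM + 1) for the 7 genes, 1 point for each of the 18 pairs with the same strain (colour), sex (filled for female) and title word (circle for high), with a line at the median. For Plvap, Esm1 and Btnl9 most points lie near 0 and the highest are DBA/2J or NOD/ShiLtJ pairs at 7.78, 5.98 and 6.19, Igfbp3 is spread from -4.24 to 6.39, and Plpp3 lies below 0 in 13 of 18.

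Genes with a pattern like that of Plvap were sought by the Pearson correlation of log2(CPM + 1) over the 43 libraries, among 14615 genes with a mean of at least 1 CPM. The 10 closest were Exoc3l2 (r = 0.91), Esm1 (0.89), Gpihbp1 (0.85), Tnfaip2 (0.81), Rbp7 (0.80), Piezo2 (0.79), Btnl9 (0.77), Ttr (0.76), Clic6 (0.71) and Col13a1 (0.69). Gpihbp1 carries lipoprotein lipase across capillaries of muscle and fat, Rbp7 is a retinol-binding protein of peripheral EC, Piezo2 a mechanosensitive channel and Col13a1 a transmembrane collagen. Ttr (transthyretin) and Clic6 are genes of the choroid plexus epithelium. Each point is a library that contributes its own depth to both genes, and the 4 libraries carry most of these values. Over the other 39 libraries r was 0.77 for Exoc3l2 and 0.45 for Ttr, but 0.33 for Esm1, -0.12 for Gpihbp1, -0.08 for Rbp7, 0.02 for Piezo2 and -0.13 for Btnl9.

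The genes closest to Esm1 were Gpihbp1 (0.90), Plvap (0.89), Rbp7 (0.85), Btnl9 (0.82) and Piezo2 (0.79). Those closest to Btnl9 were Gpihbp1 (0.87), Esm1 (0.82), Rbp7, Plvap and Col13a1 (each 0.77), and those closest to Igfbp3 were Gpihbp1 (0.67), Esm1 (0.65), Rbp7 (0.64), Plvap (0.62) and Btnl9 (0.60). These 4 genes thus had mostly the same neighbours, but they had been chosen on their levels in these libraries. Without the 4 libraries r of the pairs just listed lay between -0.13 (Btnl9 and Plvap) and 0.40 (Btnl9 and Col13a1). The other 3 genes had neighbours of their own: Rab5c (0.64), Insig1, Tmem110 and Fbxo7 for Plpp1, Igdcc4 (0.61), Rhobtb3, Pcdhgc3, Ptprf and Igfbp2 for Plpp3, and Ramp2 (0.75), Arl4a, Rpn1, Ddx5 and Ubb for Rgcc. Without the 4 libraries r was 0.70 for Plpp1 and Rab5c, 0.75 for Plpp3 and Pcdhgc3 and 0.73 for Rgcc and Ramp2, beside the 0.77 of Plvap and Exoc3l2. Between Plpp3 and Rgcc r was -0.22 over 43 libraries and -0.51 over the 39.

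**Figure D4:**
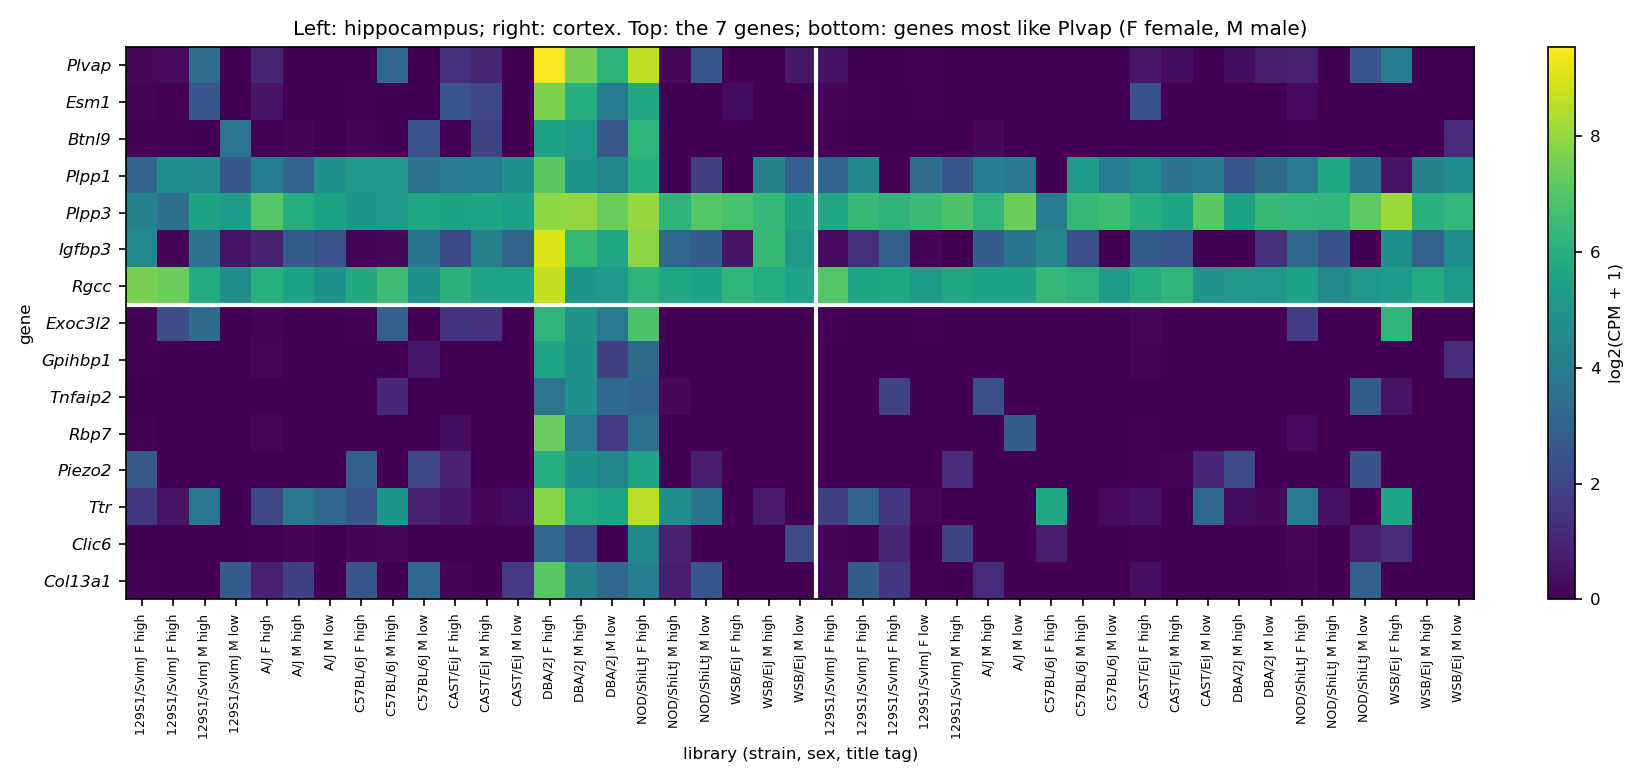
Colour gives log2(CPM + 1) of the 7 genes and of the genes most like Plvap (vertical axis) in each of the 43 libraries (horizontal axis, ordered by region and strain). The bright columns are the DBA/2J hippocampus libraries and the female NOD/ShiLtJ hippocampus library, where for example Gpihbp1 reached 46.8 CPM against at most 1.41 elsewhere in cortex and 0.514 elsewhere in hippocampus.

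Other genes of fenestrated or peripheral endothelium moved with Plvap only in part. Gpihbp1 stood at 46.8 CPM in the female, 28.1 in the male high and 2.55 in the male low DBA/2J HC library and at 8.82 in the female NOD/ShiLtJ one, against at most 1.41 elsewhere. Col15a1, a basement membrane collagen, stood at 87.0, 59.3 and 25.3 in the same DBA/2J libraries and at 121.9 in the NOD/ShiLtJ one, against at most 17.5 elsewhere. Both were above every other library in all 4. The share of all genes that separate these 4 libraries in this way is not given here, so the separation is a description only. Exoc3l2, an exocyst component of EC, was at 74.9, 30.5 and 14.01 CPM in DBA/2J HC and at 115.1 in the female NOD/ShiLtJ HC library, with at most 9.45 in other HC libraries, but the female WSB/EiJ cortex library, the one with 15.1 CPM of Plvap, held 77.8.
Cd36 and Fabp4, lipid transport genes of muscle and fat capillaries, stayed under 1 CPM in the 4 libraries. Fabp4 nevertheless had counts only there, at 0.708 CPM in the male low DBA/2J and 0.488 in the NOD/ShiLtJ library, near the floor. Emcn, Ehd3, Nostrin, Ramp3 and Plat lay inside the range of the other libraries in these 4. The list had been chosen with earlier results of these data known, and its Aqp1, Cd36 and Fabp4 were at 0 in most libraries. Aqp1 nevertheless stood at 15.0 CPM in the female NOD/ShiLtJ HC library, against at most 5.27 elsewhere. Tmem204 stood at 285.3 CPM in the female DBA/2J HC library, against at most 273.6 elsewhere. Of the 12 genes of this list, all had a log2 fold change above 0 in HC against cortex, with a median of 0.77 beside 0.03 over all genes, and none was called. Gpihbp1 had the largest, 5.67 ± 1.65 (SE), with an adjusted p of 0.248 by edgeR's quasi-likelihood test.

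The lists of the processes to which the genes belong gave no call between HC and cortex by edgeR's quasi-likelihood test either. Over all 21 lists, cell type markers included, 28 genes had an unadjusted p under 0.05 by that test, 6 of them astrocyte markers. The share of all genes under that p is not given here, so nothing is read from the count. The median log2 fold change was 0.08 over 8 caveolar genes, 0.12 over 12 genes of tip cells and VEGF signalling, 0.11 over 16 of endothelial Wnt signalling, -0.01 over 14 of lipid phosphatases and lysolipid signalling and -0.03 over 9 of the IGF axis, beside 0.03 for all genes. Of 7 mitotic genes tested the median was 0.53, and of 5 butyrophilin genes tested 3.17, both from genes at or near 0 in most libraries. Over the 21 lists (207 genes in all) Gfap, the astrocyte filament gene, was the one gene called, at 1.61 ± 0.35 with an adjusted p of 0.0230 by edgeR's quasi-likelihood test. With the DESeq2 Wald test, or with strain and sex as covariates, 3 and 4 list genes were called.

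Barrier genes were measured beside the members. The 16 blood-brain barrier genes all had a log2 fold change above 0 in HC, with a median of 0.10 and no call. Their summed level in the DBA/2J HC libraries was 7624 to 8554 CPM, under the 8564 to 16493 of the other 18 HC libraries, and inside the cortical range of 6748 to 15897, while in the female NOD/ShiLtJ HC library it was 13159. Slc2a1, the glucose transporter, stood at 587.3 CPM in the female DBA/2J HC library and at 1180 and 1166 in the male ones, against 1781 in the NOD/ShiLtJ library. The other 18 HC libraries held 1132 to 2470 CPM of it and cortex 767.6 to 2404, so only the female DBA/2J value lay outside. Not all 16 genes were low in that library. Itm2a stood there at 1650 CPM, against a median of 1211 in the other 18, and Abcb1a lay inside the range of those 18 in all 4 libraries. The 10 venous markers summed to 528 to 850 CPM in DBA/2J HC and 595 to 2513 in the other 18 HC libraries, which overlapped. Cortex held 898.9 to 2782.5 CPM, above each DBA/2J HC library, with the DBA/2J cortex libraries at 1168 (high) and 955 (low). Whether less barrier or venous RNA had a part in the DBA/2J levels was not tested.

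Markers of the choroid plexus epithelium also moved with Plvap. Their 12 genes summed to 490.9, 214.1 and 124.4 CPM in the female, male high and male low DBA/2J HC libraries and to 889.0 in the female NOD/ShiLtJ HC library, against 25.2 to 244.7 in the other 18 HC libraries and 19.8 to 250.6 in cortex. The sums of the male DBA/2J libraries thus lay within the range of the rest. In the other 18 HC libraries and in cortex, however, the highest sum was nearly all Enpp2, at 244 and 249.97 CPM. The male high and male low DBA/2J HC libraries held 90.4 and 65.2 CPM of Enpp2, so this range says little about their other markers. Ttr, the most abundant of the 12 in the epithelium, stood at 223.8, 57.6 and 46.6 CPM in DBA/2J HC. It stood at 388.2 in the NOD/ShiLtJ library, with at most 31.3 in other HC libraries and 51.4 in cortex.
Of the 12, only Prlr was above every other library in all 4 (5.52 to 8.11 CPM against at most 4.502), and here too the share of all genes that are is not given. Clic6 and Folr1, at 21.2 and 12.5 CPM in the NOD/ShiLtJ library and 8.04 and 4.55 in the female DBA/2J one, fell to 3.28 and 0 and to 0 and 0 in the male DBA/2J libraries, and Kcne2 and Kcnj13 had no count in any DBA/2J HC library. Against cortex 11 of the 12 had a log2 fold change above 0, with a median of 1.47 and no call. The part of choroid plexus cells in the levels of Plvap and its companions was not tested. The summed levels of the pericyte, smooth muscle, arterial and general EC markers in the 4 libraries lay within the range of the others. Neuron markers summed to 498.1 and 617.9 CPM in the male high and male low DBA/2J HC libraries. The female DBA/2J and NOD/ShiLtJ HC libraries held 186.5 and 176.7, the other 18 HC libraries 79.8 to 381.8 and cortex 100.8 to 857.7. Vascular fibroblast markers summed to 166.5 CPM in the NOD/ShiLtJ library, against at most 134.9 in the other 18 HC libraries and 165.6 in cortex. Single markers also left the range, such as Kdr, the VEGF receptor. It stood at 2100 and 1879 CPM in the female DBA/2J and NOD/ShiLtJ HC libraries against at most 1558 elsewhere.

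The members' levels relative to Plvap differed among the 4 libraries. For each CPM of Plvap the DBA/2J HC libraries held 0.272, 0.322 and 0.213 CPM of Esm1 (female, male high, male low) and the NOD/ShiLtJ library 0.133. For Btnl9 the order was another, with 0.0594, 0.183 and 0.0771 in DBA/2J and 0.189 in NOD/ShiLtJ. Igfbp3 stayed within 0.428 to 0.705 in all 4. Ttr ran from 0.298 to 0.968, highest in the NOD/ShiLtJ library, so Esm1 was lowest relative to Plvap where Ttr was highest.

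Sex was not a criterion in the choice of the genes, although the choice used the same libraries, and Rgcc differed between the sexes. Rgcc was higher in females with a log2 fold change of 1.16 ± 0.22 (SE; adjusted p = 0.00018, edgeR's quasi-likelihood test, 16 against 27 libraries), and 1 of the 7 genes was called beside 2.85% of all 29120 genes tested (745 higher and 85 lower in females). With DESeq2's size factors in place of TMM the split was 430 higher and 155 lower and the median log2 fold change of all genes -0.24 rather than -0.12, with Rgcc at 1.04 and still called. The lowest, median and highest levels were 37.2, 67.5 and 420.0 CPM in females and 21.6, 44.6 and 92.4 in males, so the ranges overlapped. In HC the mean log2(CPM + 1) was 6.77 ± 1.02 (SD, n = 8) in females and 5.46 ± 0.49 (n = 14) in males, and in cortex 5.83 ± 0.59 (n = 8) and 5.42 ± 0.50 (n = 13).

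The highest female levels were those of DBA/2J and 129S1/SvImJ. Among 12 strain and region combinations with a female and a male library titled high, Rgcc was higher in the female in 9, in 6 of 7 in HC and 3 of 5 in cortex. The median difference was 0.44, from -0.76 in C57BL/6J HC to 3.68 in DBA/2J HC. Leaving out DBA/2J lowered the log2 fold change to 0.71 (adjusted p = 0.0667, edgeR's quasi-likelihood test), and using only libraries titled high to 0.96 (adjusted p = 0.0564). With the share of the rRNA-like transcripts as a covariate, an alternative chosen after seeing the data, it was 0.87 (adjusted p = 0.477). It remained past the threshold in the 12 other alternatives, and over all 15 the adjusted p ran from 0.00014 to 0.477.

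**Figure D5:**
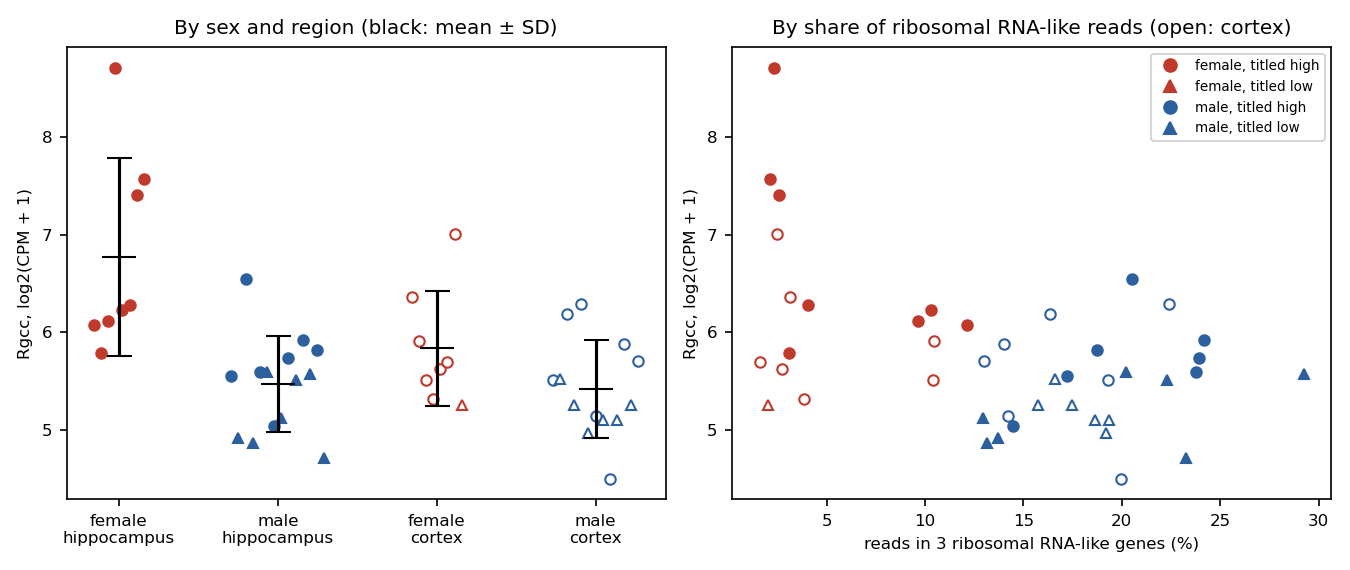
Rgcc as log2(CPM + 1) on the vertical axis, 1 point per library, by sex and region with the mean and SD of each group (left) and against the percentage of reads in the rRNA-like transcripts (right; open points are cortex). The female hippocampus group has the highest mean (6.77) and the widest spread (SD 1.02), with DBA/2J at 420.0 CPM as its top point, and female libraries (1.59 to 12.1%) lie left of all male ones (13.0 to 29.3%).

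None of the other 6 genes was called between the sexes by edgeR's quasi-likelihood test, while DESeq2's Wald test called Btnl9 in the opposite direction (-5.06, adjusted p = 0.00872) and put Plvap at -0.18 (adjusted p = 0.974). With edgeR, Plvap had a log2 fold change of 2.72 ± 0.89 in females (adjusted p = 0.0835), Igfbp3 1.92 ± 0.65 (0.103), Esm1 2.37 ± 0.95 (0.212) and Btnl9 1.70 ± 1.06 (0.481). Without the 4 libraries the log2 fold change was 0.12 for Plvap, 1.12 for Esm1, -0.58 for Igfbp3 and -4.54 for Btnl9, none past the threshold. Without DBA/2J, Plvap was at 4.37 with an adjusted p of 0.00192, with the female NOD/ShiLtJ HC library, at 401.0 CPM, then the highest. Plpp1 (0.44 ± 0.46, adjusted p = 0.610) and Plpp3 (0.19 ± 0.26, adjusted p = 0.722) were nearest to 0.

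In matched libraries titled high, Plvap was higher in the female in 8 of 12 combinations and lower in 2, Esm1 higher in 9 and lower in 1, and Btnl9 higher in 6 and lower in 2, mostly by little, with medians of 0.30, 0.29 and 0.01 in log2(CPM + 1). Igfbp3 split by region, higher in the female in 2 of 7 in HC and in 5 of 5 in cortex.

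Whether the sex difference itself differed between HC and cortex was fitted as an interaction in edgeR's quasi-likelihood model. Region was part of the choice of the 7 genes, and the female DBA/2J and NOD/ShiLtJ HC libraries are among the 4. DBA/2J also had no female cortex library. For the 7 genes the interaction is therefore a description, and nothing is read from it. Of 29120 genes 0.00343% were called, which is 1 gene, Cabp7, named after its values were seen, and none of the 7 genes was. The interaction was 1.15 ± 0.42 (SE) on the log2 scale for Rgcc, 2.06 for Plpp1 and 4.37 for Btnl9, each toward a larger female excess in HC. For Btnl9 it turned to -2.29 without the 4 libraries. DESeq2 called 24 genes in this comparison, and none of the 7 was past the threshold under any alternative run.

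Among male libraries, those titled high were compared with those titled low. Here 1.06% of 27529 genes tested were called by edgeR's quasi-likelihood test (81 higher and 212 lower in high), and none of the 7. Rgcc came nearest, at 0.56 ± 0.22 (adjusted p = 0.371, and the one gene of the 7 with an unadjusted p under 0.05, 0.0140), with a lowest, median and highest level of 21.6, 51.8 and 92.4 CPM in high and 25.2, 33.8 and 47.1 in low. High exceeded low in 10 of 13 matched pairs, and by DESeq2's Wald test the adjusted p was 0.0263. For Plvap (1.24 ± 1.02), Esm1 (2.04 ± 1.55) and Btnl9 (0.61 ± 1.61) the adjusted p lay between 0.651 and 0.908, and Plpp1 (0.42), Plpp3 (-0.24) and Igfbp3 (0.51) lay between 0.663 and 0.770.

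The lists showed more in this comparison than the 7 genes did. Of 16 barrier genes 4 were higher in high, among them Cldn5, the main tight junction claudin (log2 fold change 0.96), and Slc2a1 (0.50), with none lower and a median of 0.42 beside 0.04 for all genes. Of 8 caveolar genes Cav1 was higher (0.67). Of 10 astrocyte markers 3 were lower, Aldoc among them (-1.12), and Hba-a2, a haemoglobin gene, was higher (4.06). Barrier genes did not shift alone. The median was 0.66 for venous, 0.43 for arterial and 0.26 for general EC markers, with 2 of the last called higher and 1 lower. It was -0.81 for astrocyte, -0.92 for neuron, -1.06 for oligodendrocyte and -1.70 for microglia and macrophage markers, with 1 neuron and 1 oligodendrocyte marker called lower. Between the sexes the list genes called were Nostrin (0.69), Itm2a (0.58), Egfl7 (1.18), Esam (0.61), Ttr (2.52) and Enpp2 (0.87), higher in females, and Ctnnb1 (-0.53), Adgra2 (-0.51), Slc1a2 (-1.17) and Slc1a3 (-0.78), lower. Ttr and Enpp2 are choroid plexus markers, and their part in the sex values of Plvap and Esm1 was not tested.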

How the data were processed

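Read counts per gene were the deposited values. Per the labels and the study's methods, RNA of sorted cells was rRNA-depleted, made into stranded libraries with a low-input kit and sequenced as single-end reads, and the authors aligned the reads with HISAT2 2.1.0 to mm10, handled them with SAMtools 1.9 and counted them per gene with featureCounts of Subread 1.4.4, without normalization. The members and gene lists were chosen with earlier results of these data known. From the counts, CPM was computed on library totals scaled by TMM. A gene entered the tests if 1 library or more reached 0.5 CPM, and edgeR 4.0.16 gave the test (quasi-likelihood, two-sided, Benjamini-Hochberg adjustment over all genes tested, threshold 0.05, limma 3.58.1, R 4.3.3), without covariates as in the study. In fits with covariates or an interaction, genes whose fitted counts ran far above any observed count were left out. The study used DESeq2, which was run here as an alternative (DESeq2 1.42.0). The test was tested on simulated data with known changes. Named besides the members were the genes of highest Pearson r with each (10 for Plvap, 5 for the others, of which 1 is not reported here), and of each list the genes called, at most 4 in each direction, and the 2 of highest mean CPM; other genes given with values were chosen after their values were seen. Levels were described with log2(CPM + 1). Alternatives were DESeq2, its size factors in edgeR, other filters on low counts, covariates, matched libraries, a pseudocount of 0.1, leaving out each strain, and, chosen after seeing the data, leaving out the 4 libraries named in the text or adding the share of rRNA-like reads as a covariate. Descriptions used Python 3.11.15 with numpy 2.4.6, pandas 2.3.3, scipy 1.17.1 and matplotlib 3.10.9.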

Additional observations from a re-analysis of the deposited data

Results flagged for a closer look

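In 22 of the 59 groups of 4 to 10 libraries examined (a strain, or a strain and region, for 1 gene), the highest or lowest library stood farther from the next than Dixon's 95% limit. The limit served to pick libraries for a closer look and not as a test. No chance rate applies to these groups, because the genes were selected on these levels and several are near 0 in most libraries. The libraries are therefore listed as a description.

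For Plvap the highest library stood apart in 129S1/SvImJ (male high HC, 9.69 CPM, both within the strain and within its HC libraries), in 129S1/SvImJ cortex (a female library at 0.382 CPM), A/J (female HC, 0.961), C57BL/6J (male high HC, 8.27), NOD/ShiLtJ (female HC, 401.0) and WSB/EiJ (female cortex, 15.1). For Esm1 it did in 129S1/SvImJ (male high HC, 4.96, within the strain and within HC), A/J (female HC, 0.432) and NOD/ShiLtJ (female HC, 53.4). For Btnl9 it did in 129S1/SvImJ (male low HC, 12.4, within the strain and within HC), C57BL/6J (male low HC, 4.37), CAST/EiJ (male high HC, 3.03), NOD/ShiLtJ (female HC, 75.7) and WSB/EiJ (male low cortex, 1.41).

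For Plpp1 it was the lowest library that stood apart, in 129S1/SvImJ (a female cortex library at 0.0652 CPM) and in C57BL/6J (female cortex, 0 CPM). For Plpp3 the male low cortex library of CAST/EiJ was the highest, at 134.8 CPM, and for Rgcc a female cortex library of 129S1/SvImJ (127.4 CPM within the cortex libraries of the strain) and the female HC library of DBA/2J (420.0 CPM). The distances were taken on log2(CPM + 1).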

How the results depend on the processing

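The pooled differences in level between HC and cortex kept their direction under all alternatives run. The smallest absolute value came without the 4 libraries for Plvap, Esm1, Btnl9, Igfbp3 and Plpp1, without 129S1/SvImJ for Plpp3 and within matched libraries for Rgcc (0.23). Of the 7 genes' log2 fold changes under the alternatives, 81 between the sexes kept their direction and side of the threshold while 12 turned, 6 passed the threshold and 3 (all of Rgcc) lost it. Between title words 82 kept them, 4 turned and 1 (Rgcc with DESeq2) passed, and in the interaction 77 kept them and 6 turned. Counts at 0 or near it in most libraries limit Plvap, Esm1 and Btnl9. No paired analysis was possible because the labels do not say which libraries share a mouse, and replicate numbers are given for 129S1/SvImJ alone, but HC and cortex were also compared within strain, sex and title word, which gave 56 genes called rather than 22.

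The number of genes called between HC and cortex was 61 with the DESeq2 Wald test, 57 with strain and sex as covariates and 11 to 28 leaving out each strain (11 without NOD/ShiLtJ). Between the sexes it was 448 with only libraries titled high, 56 with the share of rRNA-like reads as a covariate and 515 to 825 leaving out each strain, against 830. Between title words in males it was 635 with DESeq2, 563 with strain and region as covariates and 124 to 407 leaving out each strain, against 293. For the interaction it was 24 with DESeq2, 2 without a filter on low counts, 0 with edgeR's own filter, 0 without the 4 libraries and 0 leaving out any strain, against 1. List genes called between HC and cortex numbered 3 with DESeq2, 2 without a filter, 4 with strain and sex as covariates, 5 within matched libraries, 0 without the 4 libraries and 0 to 3 leaving out each strain, against 1.

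Signs turned for log2 fold changes that were mostly not past the threshold, and the cause was not tested. Between the sexes DESeq2 gave -0.18 for Plvap and -5.06 for Btnl9 (adjusted p = 0.00872), strain and region as covariates gave -0.98 for Btnl9, and the rRNA-like share as a covariate gave -0.78 for Esm1, -0.021 for Plpp1 and -0.16 for Plpp3. Without the 4 libraries the values were -4.54 for Btnl9, -0.44 for Plpp1, -0.016 for Plpp3 and -0.58 for Igfbp3, leaving out each strain Plpp1 ran from -0.17 (without DBA/2J) to 0.76, and Plpp3 from -0.076 (without WSB/EiJ) to 0.50. Plvap passed the threshold without a filter (2.66, adjusted p = 0.0430), without 129S1/SvImJ (3.27) and without DBA/2J (4.37), Esm1 with strain and region as covariates (3.64, adjusted p = 0.0367), and Igfbp3 without 129S1/SvImJ (2.43) or WSB/EiJ (2.50). Between title words Btnl9 was at -1.90 with DESeq2, -0.91 with strain and region as covariates, -2.48 (without DBA/2J) to 1.75 leaving out each strain, and -2.46 without the 4 libraries. For the interaction, the values without the 4 libraries were -4.18 for Plvap, -2.29 for Btnl9, -0.0050 for Plpp3 and -2.54 for Igfbp3, Plvap ran from -1.50 (without NOD/ShiLtJ) to 3.72 leaving out each strain, and Esm1 at 1.39 with DESeq2.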
